A study of Mus musculus with 8 samples.

Results

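The genes described here encode guidance cues and their receptors: semaphorins with plexins and neuropilins, ephrins with Eph receptors, Slits with Robos, and netrins, repulsive guidance molecules (RGMs) and Flrt proteins with Neo1 and the Unc5 receptors. They were chosen by gene symbol, with earlier results of these data known, and 52 of the 12589 genes in the deposited table matched. Of these, 31 encode ligands and 21 encode receptors. The cells were mSSC-YFP, a stromal line derived from mouse spleen that expresses yellow fluorescent protein, grown in medium with fetal bovine serum. The labels list 4 cultures given BMS493, an inhibitor of retinoic acid (RA) signaling, and 4 given its vehicle DMSO, for 48 h. The dose stated for stromal cells in the study's methods was 1 μM. All 8 cultures were of this single line without leukemic cells, so the values describe the line and not the mixed stroma of a spleen, and nothing in the labels says that the cultures were independent experiments.

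Guidance cues were first described for the steering of growing axons, and outside the nervous system they act on the adhesion and movement of many cell types, including endothelial cells, fibroblasts and lymphocytes. Binding of a cue to its receptor changes the activity of small GTPases and so the actin skeleton and integrin attachment of the receiving cell. Several cues are themselves membrane proteins, as the ephrins are, so that signals can pass in either direction when cells touch.

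The level used throughout is the authors' mean log2 normalised expression over all cultures, from which the log2 of the gene's summed exon length in kilobases was subtracted. A level of 0 therefore stands for 1 unit per kilobase, on a scale close to RPKM. Cultures with BMS493 and with DMSO enter the same mean, so the values below describe how much of each transcript the line carried over both treatments together. They give no difference between BMS493 and DMSO, because the column holds 1 mean per gene and the remaining columns are the authors' own results on that difference, which were not used here. For the same reason no spread between cultures, no depth of a single library and no interval can be given. Neighbours in the order of levels cannot be told apart by a test. The paper's methods name no minimum of expression for the table, whose lowest mean log2 value was -0.58. Levels, shares and percentiles of all genes are taken among the genes listed in it, of which 12393 have a length. They do not rank a gene among all genes of the mouse.

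Of the markers used to check the label, those of fibroblastic stroma were the ones present as a whole. All 11 of 11 stromal or fibroblast markers had a value, with a median level of 6.16, from 1.92 for Pdgfra to 10.57 for Col1a1. No value was read for the 4 B cell, 4 T cell and 5 myeloid markers. Of 5 endothelial markers, values were read for Kdr (-0.34) and Pecam1 (-2.17), both far below the median level of all genes, 2.85. Of the 5 pericyte or smooth muscle markers, Acta2 stood at 10.39 and Cspg4 at -1.17. The epithelial markers Krt8 and Krt18 stood at 0.58 and -0.21, but Cdh1, which encodes the adhesion protein E-cadherin, stood at 5.83, at percentile 93.0 of all genes. Of 6 neuron and glia markers only Mbp had a value, 2.26. The part that any other cell type had in the levels below was not tested.

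Guidance genes were often listed, but mostly at modest levels. The mouse annotation holds 77 protein-coding genes whose symbols match, and 67.5% of them (52 genes) had a value, beside 52.3% of all 21992 protein-coding symbols. The other 25 were not analysed here: Sema3g, Sema4a, Sema4f, Sema5b, Sema6b, Plxnc1, Efna3, Efnb3, Epha5, Epha6, Epha8, Epha10, Ephb1, Ephb2, Slit1, Robo2, Robo3, Robo4, Ntn5, Ntng1, Ntng2, Dcc, Unc5a, Unc5c and Unc5d. Their levels are unknown, and 4 of them belong to the Eph A receptors, 4 to the netrin receptors and 3 to the Robos. By contrast both neuropilins, both RGMs, the class 7 semaphorin and all 3 Flrts had a value.

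**Figure D1:**
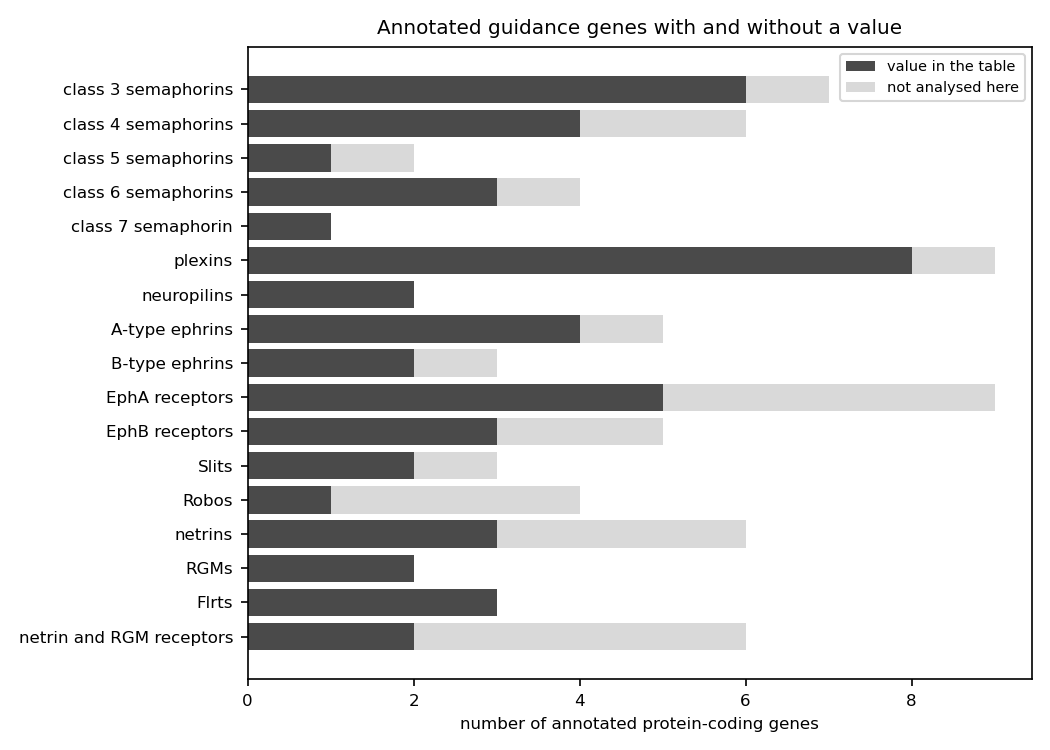
Number of annotated protein-coding guidance genes in each family (horizontal axis), split into those with a value in the deposited table (dark) and those not analysed here (light). Plexins had values for 8 of 9 genes, EphA receptors for 5 of 9 and Robos for 1 of 4.

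Before scaling by length, the median guidance gene had a mean log2 value of 4.92, close to the 5.01 of all genes with a length. The guidance genes are long, with a median of 6998 bases of summed exons against 4381 for all genes, and per kilobase their median level was 1.94 against 2.85. This corresponds to 3.85 against 7.22 units per kilobase. In total 20 of the 52 lay above the median level of all genes, 13 lay above percentile 75 and 22 lay at or below percentile 25. A level of at least 0 was reached by 41 of 52 guidance genes (78.8%), whereas 89.0% of all genes reached it. Levels ran from -2.88 for Sema6a to 6.73 for Plxnb2.

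**Figure D2:**
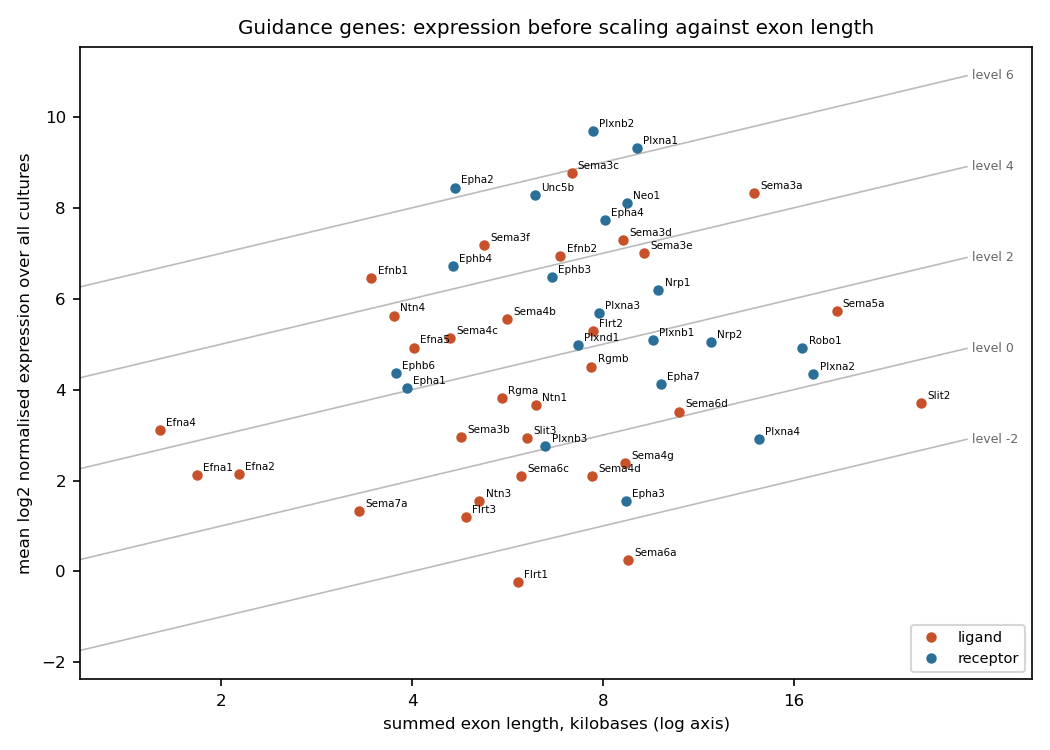
Mean log2 normalised expression over all cultures (vertical axis) against summed exon length in kilobases (horizontal axis, log scale) for the 52 guidance genes, with ligands and receptors in different colours. Grey lines join points of equal level. Sema3a and Plxna4 are alike in length, at 13.9 and 14.1 kb, but lie at levels of 4.52 and -0.91.

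Receptors stood higher than ligands on this scale, but that order depended on how length was measured. Their median level was 2.45 over 21 receptors and 1.34 over 31 ligands, a difference of 1.11. With the longest transcript as the length, the difference was 0.48. With the coding length alone it turned to -0.18. The coding part made up a median of 31.6% of the summed exons in ligands, from 14.7% in Efnb2 to 75.3% in Slit3, and of 51.4% in receptors, from 23.6% in Nrp2 to 87.9% in Plxnb3. Of the receptors 19 of 21 (90.5%) reached a level of 0, and of the ligands 22 of 31 (71.0%), beside 89.0% of all genes. This contrast too depended on the length. With coding length 49 of the 52 guidance genes (94.2%) reached it, beside 96.8% of all genes. The ones below were the receptor gene Epha3 and the ligand genes Flrt1 and Sema6a. The percentile counts that follow were taken with summed exons only. Above percentile 90 of all genes were 4 receptors, Plxnb2, Epha2, Plxna1 and Unc5b, and 1 ligand, Sema3c. At or below percentile 10 were 9 ligands and 2 receptors.

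**Figure D3:**
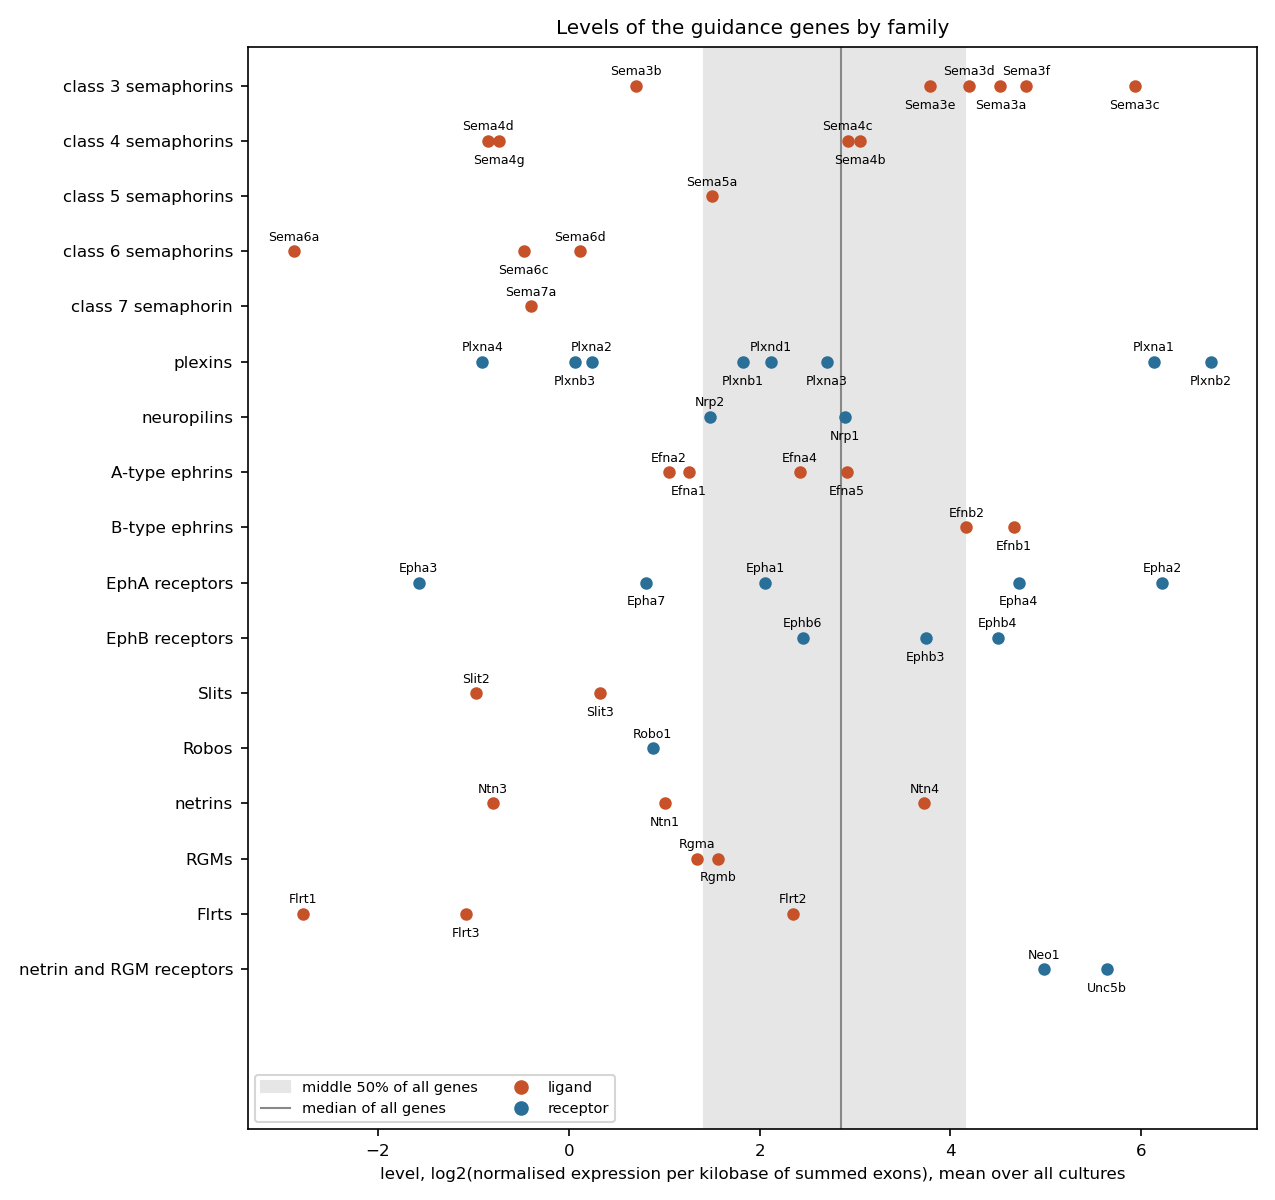
Level of each guidance gene (horizontal axis, log2 of normalised expression per kilobase of summed exons, mean over all cultures) by family (vertical axis), with ligands and receptors in different colours. The grey band spans the quartiles of all 12393 genes with a length, and the line marks their median of 2.85. Class 3 semaphorins other than Sema3b and both B-type ephrins lie right of the median, whereas class 6 semaphorins, Slits and Robo1 lie left of the band.

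Class 3 semaphorins, the secreted members of the family, held 3 of the 4 highest ligand levels, the other being that of Efnb1. With coding length they held 2 of the 4, Sema3c and Sema3a, beside Efnb2 and Efnb1. Their median was 4.36 over 6 genes, and 5 of them lay above the median of all genes. Sema3c stood at 5.93, followed by Sema3f at 4.79, Sema3a at 4.52, Sema3d at 4.20 and Sema3e at 3.79. The order of Sema3a and Sema3f turned with the other lengths, to 5.75 and 5.41 with the longest transcript and to 7.11 and 5.94 with coding length, where Sema3d at 6.08 also passed Sema3f. Sema3b, at 0.71, was the exception, 8.45 times below Sema3e per kilobase, or 15.9 times with coding length. Sema3c and Sema3a are cues for migrating neural crest and axons, and Sema3f is known as a repellent of endothelial cells. In the linear unit, these levels correspond to 61.0 per kilobase for Sema3c, 23.0 for Sema3a and 1.63 for Sema3b.

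Of these genes, 4 lie on the same chromosome. On GRCm38 (mm10), Sema3d (12383385 to 12588948), Sema3a (13125414 to 13602565), Sema3e (14025276 to 14256689) and Sema3c (17574281 to 17730268) follow each other on the plus strand of chromosome 5. Only guidance genes were considered in this order, and other genes may lie between them. Between Sema3d and Sema3a lie 536 kb, between Sema3a and Sema3e 423 kb, and between Sema3e and Sema3c 3318 kb. All 4 of them had levels above the median of all genes. Sema3b and Sema3f also follow each other among the guidance genes, 72.3 kb apart on chromosome 9. Their levels differed, with 0.71 for Sema3b and 4.79 for Sema3f. Efna1 and Efna4, 52.2 kb apart on chromosome 3, stood at 1.26 and 2.42.

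Membrane-bound semaphorins had lower levels. Of class 4, Sema4b (3.05) and Sema4c (2.93) were close to the median of all genes, whereas Sema4g (-0.73) and Sema4d (-0.85) were under 1 unit per kilobase. Sema4d, also named CD100, is best known from lymphocytes, and Sema4c is a ligand of plexin B2. Sema5a, which carries thrombospondin repeats, stood at 1.496 on the same scale. Its summed exons span 18.7 kb, and with coding length it came to 4.03, above Sema4c at 3.80. The class 6 genes Sema6d, Sema6c and Sema6a had 0.12, -0.47 and -2.88, and Sema6a was the lowest of all 52. With the longest transcript Flrt1, at -2.78, lay below Sema6a, at -2.53. Sema7a, a lipid-anchored semaphorin that binds integrins and plexin C1, stood at -0.40, at percentile 8.38 of all genes. Exons of Sema4c overlap those of D430040D24Rik on the other strand over 7.27% of their bases.

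Among plexins, the signaling receptors of semaphorins, Plxnb2 and Plxna1 stood far apart from the rest. Plxnb2 (chromosome 15, 89155549 to 89180788) had a level of 6.73, the highest of all guidance genes, at percentile 96.8 of all genes. With coding length Sema3c, at 7.59, passed Plxnb2, at 7.21. Plxna1 (chromosome 6, 89316314 to 89362620) followed at 6.13, and the next plexin, Plxna3 at 2.70, was 10.8 times lower per kilobase than Plxna1. The lowest was Plxna4 at -0.91, and the other four, Plxnd1, Plxnb1, Plxna2 and Plxnb3, ran from 2.12 down to 0.06. With coding length Plxnb3, at 0.25, lay below Plxna4, at 0.41. A non-coding gene on the other strand, Gm26811, covers 10.7% of the Plxna1 exon bases, and whether the authors counted by strand is not given in the sources used here.

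Neuropilins are the binding subunits through which most class 3 semaphorins reach A-type plexins, and they also bind vascular endothelial growth factors. Nrp1 stood at 2.89 and Nrp2 at 1.48, a ratio of 2.66 per kilobase, which was 4.05 with the longest transcript. Both were thus below Sema3c, Sema3f, Sema3a, Sema3d and Sema3e. With the longest transcript as the length, Nrp1 moved most of all receptors, to 4.32, and then passed Sema3e at 4.22, since its summed exons of 9785 bases are far longer than its longest transcript of 3645 bases. Read by cognate pairs, Sema4c at 2.93 stood beside its receptor gene Plxnb2 at 6.73, and Sema4d at -0.85 beside Plxnb1 at 1.83. Sema3e, which can bind plexin D1 without a neuropilin, stood at 3.79 beside Plxnd1 at 2.12.

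In the ephrin system 3 of 6 ligands and 4 of 8 receptors with a value lay above the median level of all genes. All 6 ephrin genes with a value reached a level of 0, as did 89.0% of all genes. The transmembrane B-type ephrins were the higher ones, with 4.67 for Efnb1 (chromosome X, 99136130 to 99148991) and 4.17 for Efnb2 (chromosome 8, 8617434 to 8661242). With coding length their order turned, to 6.40 for Efnb1 and 6.93 for Efnb2. The lipid-anchored A-type ephrins had 2.91 for Efna5, 2.42 for Efna4, 1.26 for Efna1 and 1.05 for Efna2. Thus Efna1, often described as a main ligand of EphA2, was among the lower ephrins of the line. Exons of Efna4 overlap those of 4731419I09Rik on the other strand over 10.5% of their bases.

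Eph receptors are receptor tyrosine kinases, and 7 of the 8 with a value (87.5%) reached a level of 0, close to the 89.0% of all genes. Epha2 (chromosome 4, 141301240 to 141329384) stood at 6.22, next to Plxnb2 in the order of all 52 guidance genes. Epha4, whose product binds ephrins of either type, had 4.71, whereas Epha1 had 2.06, Epha7 0.81 and Epha3 -1.57. Epha2 was 222 times Epha3 per kilobase of summed exons and 120.1 times with coding length, with Epha3 at a mean log2 value of only 1.55. The 3 EphB genes were closer together, with 4.496 for Ephb4, the receptor of ephrin-B2, 3.74 for Ephb3 and 2.45 for Ephb6, which encodes a receptor without kinase activity. Exons of Epha1 overlap those of Zyx on the other strand over 6.01% of their bases.

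The Slit and Robo genes with a value were low per kilobase. Robo1, the one receptor of the family with a value, stood at 0.88, and the secreted ligands Slit3 and Slit2 at 0.33 and -0.97. Robo1 came to 2.00 with the longest transcript and 2.64 with coding length. Before scaling by length its mean log2 value was 4.92, at percentile 48.7 of all genes. Slit2 has the longest summed exons of all the guidance genes, 25.4 kb, and with its longest transcript it came to 0.38 against 0.54 for Slit3. With coding length Slit2 was the higher, at 1.49 against 0.74. The order of these ligands is therefore not settled by these values, although all 3 genes were below the median of all genes under each of the 3 lengths.

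The 2 netrin and RGM receptors with a value, of 6 annotated, stood above the ligands with a value. Unc5b (chromosome 10, 60762593 to 60831581), a repulsive netrin receptor, had a level of 5.64, and Neo1 (chromosome 9, 58874687 to 59036441), the receptor of RGMs that also binds netrins, had 4.98. Netrin 1, the classical ligand of these receptors, was encoded by Ntn1 at 1.01, so that Unc5b was 24.8 times higher per kilobase, or 15.8 times with coding length. The highest netrin was Ntn4, which binds laminins in basement membranes, at 3.73, which put Neo1 2.38 times above it, and Ntn3 had -0.80. Exons of Ntn3 overlap those of other genes over 4.46% of their bases, with Tbc1d24 on the same strand. Rgmb and Rgma, the ligands of Neo1, stood at 1.57 and 1.34. Neo1 was 10.6 times Rgmb with summed exons and 3.53 times with coding length. Of the Flrt genes, whose products are adhesion molecules and bind Unc5 receptors, Flrt2 had 2.35, whereas Flrt3 and Flrt1 had -1.08 and -2.78.

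**Figure D4:**
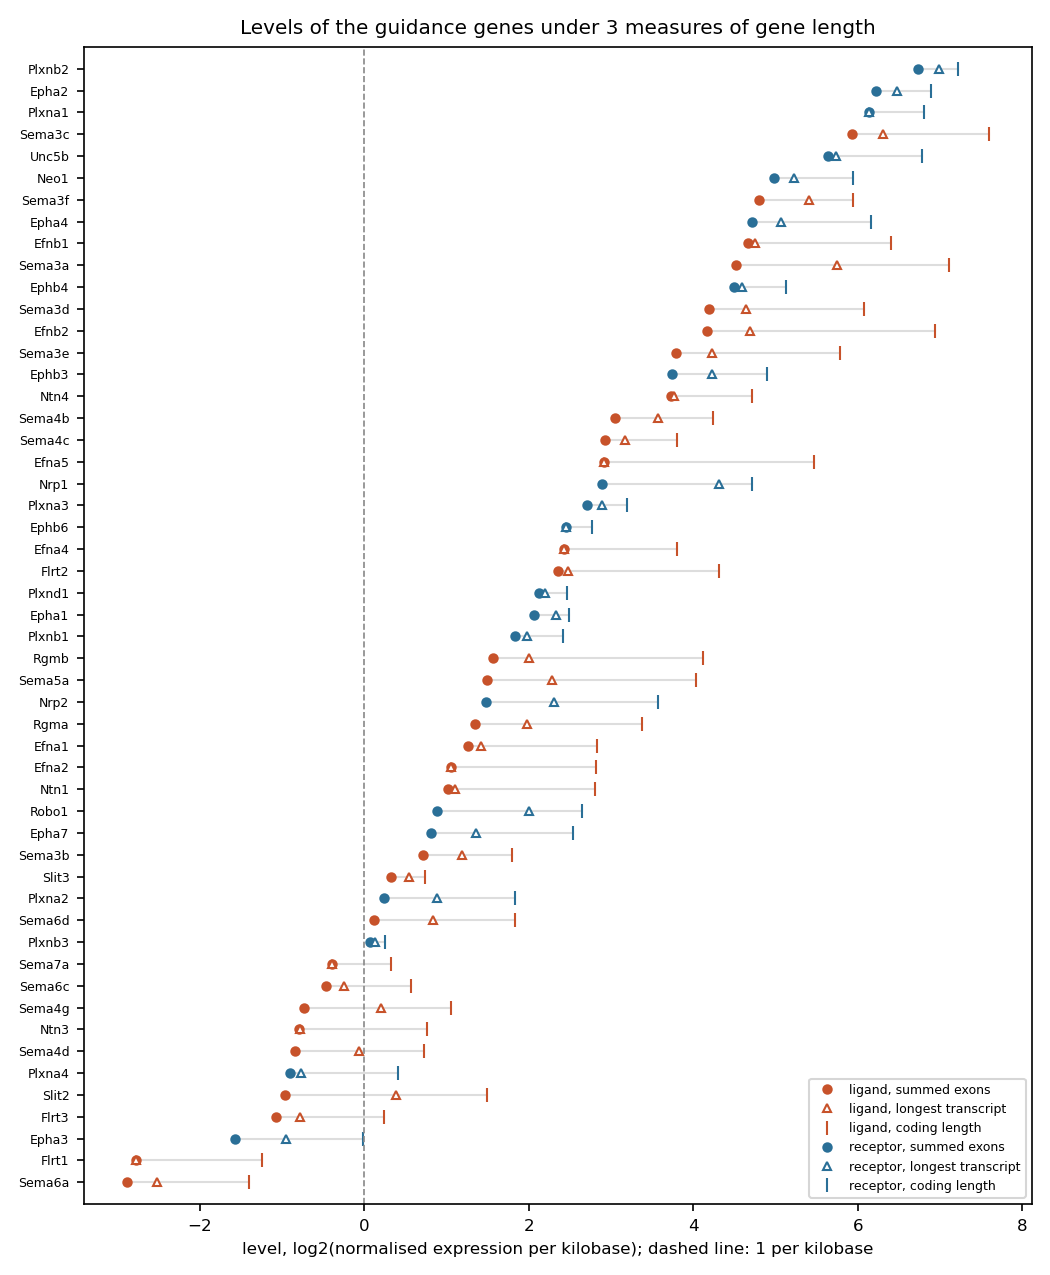
Level of each of the 52 guidance genes (horizontal axis, log2 of normalised expression per kilobase) with the summed exons (filled circles), the longest transcript (triangles) or the coding part (ticks) as gene length. The dashed line marks 1 unit per kilobase. The 10 highest genes with summed exons are also the 10 highest with the longest transcript, and 8 of the 10 with coding length.

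Other genes of these pathways mostly had a value. They include intracellular partners, co-receptors, a protease, and vascular endothelial growth factors with their receptors. Of a list of 67 annotated partner genes, 58 had one, whereas 52.3% of all protein-coding symbols did. The median level of the 58 was 3.14, beside 2.85 for all genes, and 33 of them lay above that median of all genes. A level of at least 0 was reached by 87.9% of the 58, close to the 89.0% of all genes. The highest were Cfl1 (9.11), which encodes the actin-severing protein cofilin, Itgb1 (8.38), the beta 1 integrin subunit, and Cdc42 (7.02), a small GTPase. The lowest was Vav3 at -2.40. Many of these genes are known to serve adherent cells in general.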

How the data were processed

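RNA-seq was done on 8 cultures of mSSC, 4 with BMS493 and 4 with DMSO. According to the methods, the authors made stranded mRNA libraries, aligned reads to mm10 (STAR 2.3.0e per the submitters' processing notes), took gene counts on Ensembl models from unique alignments by Rsubread, and normalised by the trimmed mean of M-values. The labels describe array amplification instead. Of the 1 deposited table, the column used is the authors' mean log2 normalised expression over all cultures. Decimal commas were converted. The linear values sum to 989369, near the total of CPM values. The other 4 columns hold the authors' log2 fold change, t, p and adjusted p between treatments and were not used. The planned limma fit needed values of single cultures, which no column holds, and so it could not be run. The methods give an average number of clusters per sample, but not the depth of each culture.

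Gene models came from GENCODE M21, built on GRCm38 (11789 genes by symbol, 604 by 1 older symbol, 196 unmatched). Their lengths may differ from those of the Ensembl models on which the authors counted. The log2 of the gene's summed exon length in kilobases was subtracted, in Python 3.11.15 with numpy 2.4.6 and pandas 2.3.3. Figures were drawn with matplotlib 3.10.9. Length code was tested on simulated gene models. Families are described by counts, medians and ranges, without tests, since genes are not replicates. The members and lists were chosen with earlier results of these data known. Values are given for nearly all members: in families of 6 or fewer all, otherwise the 3 highest and the lowest, and for the partner list likewise. The alternatives were other lengths, another line and a filter on low means.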

Additional observations from a re-analysis of the deposited data

How the results depend on the processing

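The count of guidance genes at or above 1 unit per kilobase, 41 of 52 with summed exons, was 43 with the longest transcript and 49 with coding length. The share was 78.8% beside 89.0% of all genes with summed exons, and 82.7% beside 91.1% with the longest transcript. With coding length the gap was smaller, 94.2% beside 96.8%. With the line at 2 units the count was 34, and at 0.5 units 48, and the shares of all genes at these lines were not computed. The ligand median of 1.34 became 1.97 with the longest transcript, 3.37 with coding length and 1.496 with genes of a mean log2 of at least 1 only. The receptor median of 2.45 became 2.45 and 3.19 with the longest transcript and coding length. The difference of receptors minus ligands, whose alternatives were chosen after seeing the data, moved from 1.11 to 0.48 with the longest transcript, to 0.95 with the filter and to -0.18 with coding length. Coding length raises every gene's level by construction, since reads from untranslated parts stay in the numerator. The gene with the highest level in a family was the same with the longest transcript in 14 of 14 families of 2 or more genes, and with coding length in 12 of 14, the B-type ephrins and the Slits being the exceptions. No paired analysis was possible because only 1 mean per gene over the 8 cultures was used. Leaving out each culture was not run for the same reason. The depth of each culture and the spread between cultures are unknown. No error was therefore computed for the lowest levels, such as those of Sema6a and Flrt1.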
